A study of Homo sapiens with 4 samples.

Results

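Heat shock chaperone genes were followed across SPRR1A-overexpressing and control PK-1 cells, an established human line of pancreatic ductal adenocarcinoma. The group comprised 10 genes out of the 53826 gene entities in the deposited tables, chosen by symbol: HSPA1A, HSPA1B, HSPA8, HSPH1, DNAJB1, BAG3, HSP90AA1, HSPB1, HSPD1 and HSPE1. All 10 were found in all 4 tables. The study asked whether forced expression of SPRR1A, a precursor of the cornified envelope of squamous epithelium, changes gene expression in these cells. In the stable model, a pMXs retrovirus brought in either FLAG-tagged SPRR1A or, for the control, the red fluorescent protein DsRed. The methods describe no isolation of single clones. In the transient model, the insert of the plasmid pCAG was FLAG-tagged SPRR1A or, for the control, GFP (green fluorescent protein), and RNA was collected 48 h after transfection. Each of these 4 conditions had 1 library, so no difference below has a replicate check and no test was possible.

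Values are the deposited log2 of TPM, a unit that divides reads by transcript length and then by their sum (times 1000000), so that levels can be compared between genes. The lowest deposited value is 0 (a TPM not above 1), and 12964 to 13558 entities per library lay above it. The numbers of reads are not part of these values. SPRR1A itself had a log2 TPM of 10.93 against 0.75 for DsRed in the stable model and of 16.60 against 3.56 for GFP in the transient model. In what follows, values for all 4 libraries are given in this order (SPRR1A and DsRed of the stable model, then SPRR1A and GFP of the transient model). In the transient SPRR1A library this gene alone made up 9.90% of all TPM, which lowers the TPM of every other gene there. Of 6 epithelial markers (EPCAM, CDH1, KRT7, KRT8, KRT18 and KRT19), 6 were expressed, between 7.03 and 12.94 log2 TPM over the 4 libraries. PTPRC, PECAM1, COL3A1 and INS, markers of leukocytes, endothelium, fibroblasts and islet beta cells, were listed at 0 in all libraries, while the fibroblast marker COL1A1 lay between 1.96 and 2.62 and the acinar marker PRSS1 between 0.64 and 1.86. In bulk RNA, fewer cells expressing a gene and less of its RNA per cell cannot be told apart.

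Heat shock proteins are chaperones that keep other proteins folded. Proteins of the HSP70 family bind unfolded stretches in cycles driven by ATP, with J domain proteins that deliver the substrate and exchange factors that release it, and HSP90 finishes the folding of many kinases and receptors. When unfolded proteins accumulate, the transcription factor HSF1 binds heat shock elements, inverted repeats of the unit GAA, in the promoters of these genes. Several of the same chaperones are also abundant in unstressed tumor cells.

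The promoters are shown first because HSF1 acts through them. RefSeq (GRCh38.p14) gave 14 windows for the 10 genes, each of 250 bases before and 50 bases from an annotated start site, since some genes have several start sites. Pairs of facing units were searched on both strands as GAANNTTC and TTCNNGAA, each of which reads the same on both strands, and runs of 3 units as overlapping pairs that share the middle unit. A run of 3 units thus always contains both pairs. At least 1 pair was found for 7 of the 10 genes, in 8 of the 14 windows, and in 13.5% of all 35116 RefSeq windows. A run of 3 units was found for HSPA8, HSP90AA1 and HSPD1, and in 0.49% of all windows. Only exact letters were counted, so these matches are descriptions of the sequence and not measured binding sites. HSPH1, BAG3 and HSPE1 had none of these letters in their windows.

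The promoters of the inducible HSP70 genes are near copies of each other. Capitals mark the pair of facing units, the CCAAT box (as ATTGG, its reverse strand) and the TATAAA box, which directs the start of transcription. HSPA1A lies on chromosome 6 from 31815543 to 31817942 and HSPA1B from 31827738 to 31830254. The stretches below are chr6:31815390-31815518 and chr6:31827586-31827714 on the plus strand, upstream of the first exon.
HSPA1A: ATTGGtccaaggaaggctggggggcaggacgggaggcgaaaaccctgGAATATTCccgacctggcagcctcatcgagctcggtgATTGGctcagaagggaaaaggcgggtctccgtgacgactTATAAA
HSPA1B: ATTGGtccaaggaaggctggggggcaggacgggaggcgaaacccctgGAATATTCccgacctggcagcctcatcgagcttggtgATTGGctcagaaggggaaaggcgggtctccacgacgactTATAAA
These 129 bases differed at 5 positions, and none of the differences fell in a capital.

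Other members carry the element in different arrangements, shown here on the strand of the gene with only the facing units in capitals. The HSP90AA1 stretch (chr14:102087097-102087140, minus strand, upstream of the start site at 102087044) held a run of 3 units followed by a pair. That of DNAJB1 (chr19:14518429-14518482, minus strand, upstream of the start site at 14518397) held 2 pairs. HSPB1 had 1 pair (chr7:76302483-76302506, plus strand). HSPD1 had 4 units in a row (chr2:197500063-197500090, minus strand), within an annotated exon of HSPD1 and upstream of its start site at 197499840. HSPA8 had 2 runs of 3 units (chr11:123062346-123062374 and chr11:123062171-123062199, minus strand), which overlap exons of some longer HSPA8 transcripts.
HSP90AA1: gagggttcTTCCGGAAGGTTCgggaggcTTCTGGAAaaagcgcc
DNAJB1: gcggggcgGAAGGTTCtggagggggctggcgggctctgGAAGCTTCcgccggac
HSPB1: taacgagaGAAGGTTCcagatgag
HSPD1: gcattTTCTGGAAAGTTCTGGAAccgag
HSPA8 distal: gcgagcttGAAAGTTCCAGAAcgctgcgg
HSPA8 proximal: cgggccccTTCTGGAAGGTTCtaagatag

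The chaperone mRNAs were abundant in all 4 libraries. HSPA8, the constitutive HSP70 of the cytosol, was the highest, with a TPM of 2645 and 2668 in the stable and 1887 and 2110 in the transient libraries, and it ranked between 39 and 57 among all entities. HSP90AA1, the inducible HSP90 of the cytosol, was next, with a TPM of 1711, 1497, 1269 and 1469. BAG3, an exchange factor that links HSP70 to autophagy, was the lowest, with 96.8, 89.8, 97.0 and 119. Together the 10 genes made up 0.819%, 0.798%, 0.630% and 0.723% of the TPM totals, and the value for transient SPRR1A was 0.699% with SPRR1A left out of the total.

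**Figure D1:**
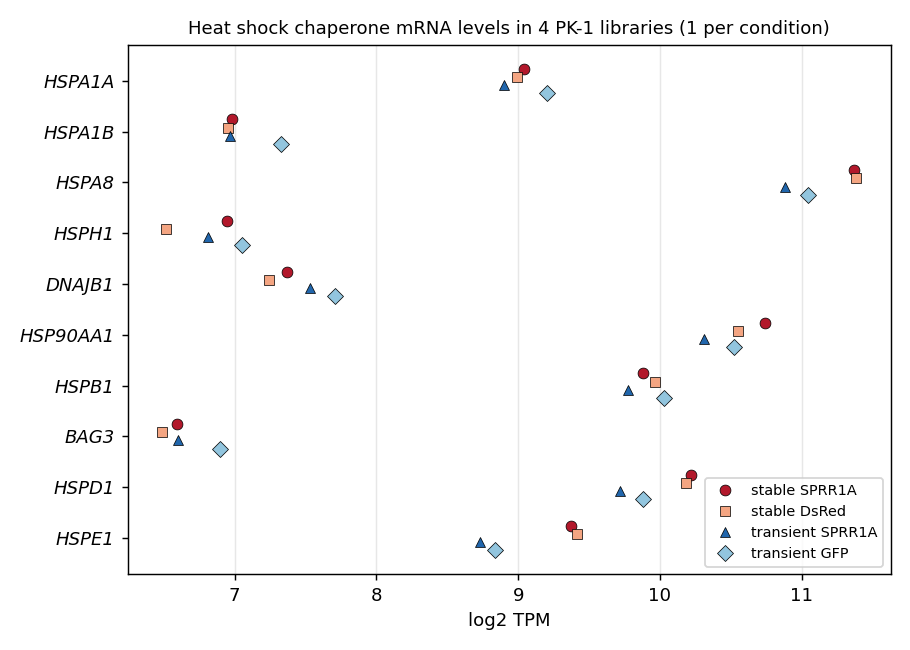
Log2 TPM (horizontal axis) of the 10 heat shock chaperone genes in the SPRR1A and control libraries of both models, with 1 point per library and no replicates. HSPA8 is the highest gene in every library, and BAG3 lies between 6.49 and 6.90. The transient libraries lie to the left of the stable ones for HSPA8, HSPD1, HSPE1 and, by a small margin, HSP90AA1.

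The order of the levels was the same within each model. In both stable libraries it ran, from high to low, HSPA8, HSP90AA1, HSPD1, HSPB1, HSPE1, HSPA1A, DNAJB1, HSPA1B, HSPH1 and BAG3. In both transient libraries HSPB1 stood above HSPD1 and HSPA1A above HSPE1, and the rest of the order was unchanged. Without replicates it is not known which neighbours differ beyond their spread.

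In the stable model all 10 genes stayed within the 2-fold threshold that the study used (a log2 difference of 1). Past that threshold were 0.13% of all entities in the higher and 0.104% in the lower direction. At a lower threshold of 0.5, which is 1.41-fold, the count of chaperone genes was also 0, against 0.944% higher and 0.502% lower among all entities. Of the 9835 entities whose TPM reached 5 in both libraries, called expressed here, 0.783% were higher and 0.356% lower by 0.5. The log2 differences of the 10 genes, as SPRR1A minus DsRed, had a median of 0.04, next to 0.06 for these expressed entities. Of the 10 genes 7 were above and 3 below 0, and 64.4% of the expressed entities were above 0. After subtraction of the median of the expressed entities, called centring, 4 of the 10 genes were above and 6 below 0.

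HSPH1, an HSP110 protein that acts as an exchange factor for HSP70, had the largest difference in the stable model. Its TPM was 123 with SPRR1A against 91.5 with DsRed, which is a log2 difference of 0.43, at the 98.2nd percentile of the expressed entities. It was also the only member outside the 5th to 95th percentile of those entities, which ran from -0.20 to 0.34. By definition 5% of the expressed entities lie beyond each end of this range, so 1 of 10 members outside it does not stand apart from them. In the transient libraries HSPH1 had 113 in SPRR1A and 133 in GFP cells, so that stable DsRed was the lowest of the 4 libraries. HSPA4, another HSP110 protein of the cytosol, had a TPM of 195, 188, 185 and 209. The less expressed HSP110 gene HSPA4L had 6.96, 4.65, 5.88 and 7.36, so that stable DsRed was the lowest library there too.

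Around HSPH1 the differences in the stable model were smaller. HSP90AA1 was 0.19 higher in SPRR1A cells on the log2 scale, and DNAJB1, the J domain partner of inducible HSP70, was 0.13 higher, with a TPM of 166 against 152. BAG3 was 0.11 higher. HSPA1A had a TPM of 527 with SPRR1A and 508 with DsRed, and HSPA1B had 127 and 124, which are log2 differences of 0.05 and 0.03. HSPA8 differed by -0.01 and HSPD1 by 0.03. The most negative value was that of HSPB1, a small heat shock protein that holds unfolded proteins without ATP, at -0.09 (941.6 against 1001).

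In the transient model all 10 genes were lower in SPRR1A than in GFP cells, and so were 94.1% of the 10154 expressed entities. The median log2 difference of the 10 genes, as SPRR1A minus GFP, was -0.22, next to -0.18 for the expressed entities. Centred on that median the 10 genes had a median of -0.04, with 4 above and 6 below 0. None passed the 2-fold threshold, past which were 0.0483% of all entities in the higher and 0.178% in the lower direction. None passed 0.5 either, against 0.256% higher and 1.25% lower among all entities and 0.118% higher and 1.05% lower among the expressed ones. All 10 lay inside the 5th to 95th percentile of the expressed entities, from -0.37 to 0.01.

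**Figure D2:**
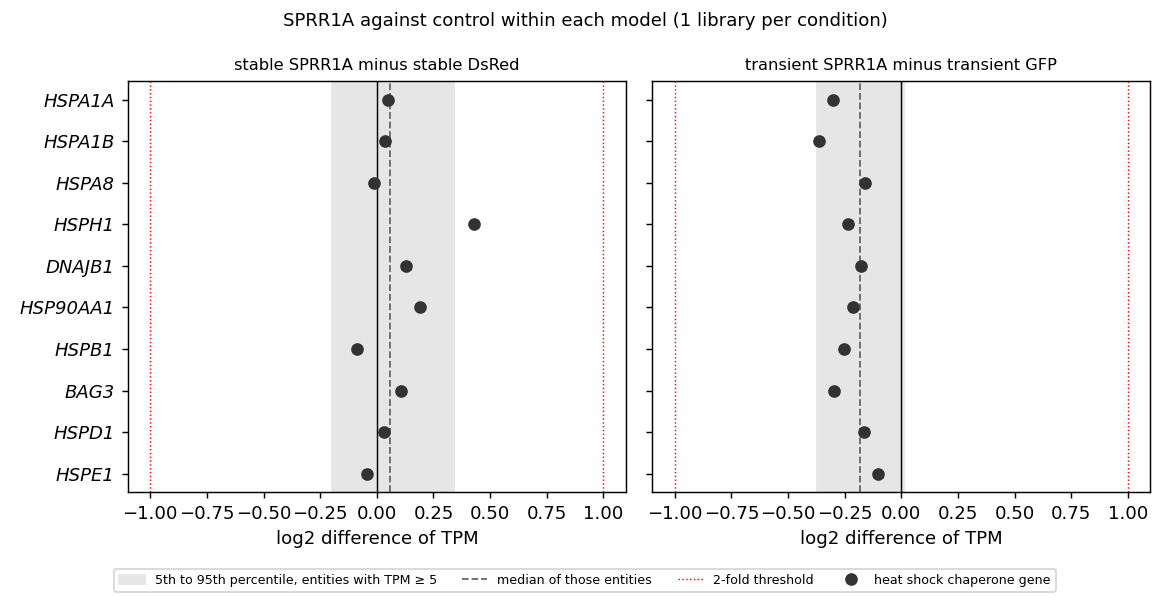
Log2 difference of TPM (horizontal axis) between SPRR1A and control cells for the 10 heat shock chaperone genes, for the stable model on the left and the transient model on the right, with 1 library per condition. Grey bands span the 5th to 95th percentile of the expressed entities, dashed lines mark their median, and dotted lines mark the 2-fold threshold. HSPH1 at 0.43 is the only point outside a band, and the points on the right spread around a median of all expressed entities of -0.18. By definition 5% of the expressed entities lie beyond each end of a band.

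The inducible HSP70 genes were the lowest in the transient comparison. HSPA1B had a TPM of 125 with SPRR1A and 161 with GFP, a log2 difference of -0.36, or -0.18 after centring. HSPA1A had 479 against 590, a difference of -0.30, or -0.12 after centring. BAG3 had 97.0 against 119, with -0.30 and -0.11. At the other end was HSPE1, the lid of the mitochondrial chaperonin, with 426 against 457, a difference of -0.10, or 0.08 after centring. HSPA8, HSPD1 and DNAJB1 also had centred values above 0, at 0.02, 0.02 and 0.00.

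HSPA1A and HSPA1B cannot be separated well by sequence. Their annotated coding sequences (GENCODE 44, GRCh38) of 1923 bases, stop codon left out, differ at 4 positions. Of all stretches of 100 bases in the HSPA1A transcript, 72.4% also occur in the HSPA1B transcript. The TPM of HSPA1A was 4.16, 4.11, 3.83 and 3.68 times that of HSPA1B. How reads that match several genes were assigned is not given in the sources used here, so this ratio is uncertain, and the sum of both genes is the safer value. The sum was 653.5, 632, 604 and 751 TPM. On the log2 scale it differed by 0.05 in the stable model and by -0.31 in the transient model. The tables also list 72 pseudogene and read-through entities named after members, of which 27 are named after HSPE1, 22 after HSPD1 and 20 after HSPA8. Only 1 of the 72 was above the floor in any library, the read-through HSPE1-MOB4, at 3.72 to 4.11 log2 TPM.

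The libraries of the transient model were then compared with those of the stable model, first the controls. These comparisons differ in vector, in marker protein, in transfection and in culture history, which cannot be told apart. As transient GFP minus stable DsRed, the median log2 difference of the 10 genes was 0.14, next to 0.12 for 9810 expressed entities. Of the 10 genes 6 were above and 4 below 0, or 5 and 5 after centring, and 63.8% of the expressed entities were above 0. The 10 genes spread in both directions around the median of the expressed entities. No member passed the 2-fold threshold, past which were 1.75% of all entities in the higher and 0.169% in the lower direction. At a threshold of 0.5, 1 member was higher and 1 lower, against 6.2% higher and 1.08% lower among all entities and 17.6% higher and 3.04% lower among the expressed ones. With 10 genes, a count of 1 in each direction does not stand apart from these shares.

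HSPH1 was the member higher by more than 0.5 between the controls, with 133 TPM in transient GFP cells against 91.5 with DsRed, a log2 difference of 0.53, or 0.41 after centring. DNAJB1 followed, with 209 against 152 and a difference of 0.46, or 0.34 after centring. BAG3 was 0.41 higher, HSPA1B 0.38 and HSPA1A 0.22, and after centring they were 0.28, 0.25 and 0.09 higher. These 5 genes were the members that lay above the median of the expressed entities in transient GFP cells. The lists of other chaperone genes described below lay on both sides. Centred medians were 0.28 for other HSP70 and HSP110 genes, 0.09 for heat shock factors, 0.09 for J domain genes and 0.08 for small heat shock proteins. They were -0.11 for 9 other HSP70 exchange factors, -0.11 for other HSF1 targets and -0.16 for mitochondrial proteases and import. For TRiC and prefoldin the value was -0.25, for 15 co-chaperones -0.28 and for other HSP90 genes -0.32.

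The mitochondrial chaperonin lay on the other side. HSPD1 forms the barrel of this folding chamber and HSPE1 closes it, and the genes lie head to head on chromosome 2, HSPD1 from 197486584 to 197500274 and HSPE1 from 197500379 to 197503449. HSPE1 had a TPM of 661 and 682 in the stable libraries and of 426 and 457 in the transient ones. HSPD1 had 1190, 1164, 841 and 941. For both genes the 2 stable libraries lay above the 2 transient libraries. The share of all entities with such a separation was not counted. Abundant keratins, markers of epithelium, were also lower in transient cells, with differences of -0.51 and -0.61 for KRT7 and -0.49 and -0.51 for KRT18 (controls, then SPRR1A libraries), and the 6 epithelial markers had medians of -0.30 and -0.45. CDH1 went the other way, at 0.71 and 0.25, and the part of these shifts in the chaperonin values was not tested. Between the controls the log2 difference was -0.58 for HSPE1, at the 1.99th percentile of the expressed entities, and -0.31 for HSPD1, and centring gave -0.70 and -0.43. HSPA8 was also lower in transient GFP cells, with a difference of -0.34, or -0.46 after centring.

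Between the SPRR1A libraries, as transient minus stable, the median log2 difference of the 10 genes was -0.13, next to -0.11 for 9843 expressed entities. Of the 10 genes 2 were above and 8 below 0, or 4 and 6 after centring, and 65.0% of the expressed entities were below 0. No member passed the 2-fold threshold, past which were 0.658% of all entities in the higher and 0.245% in the lower direction. At 0.5, 2 members were lower, HSPE1 at -0.64 and HSPD1 at -0.50, and no member was higher, against 2.15% lower and 2.42% higher among all entities and 6.71% lower and 5.26% higher among the expressed ones. Centred on the median the values were -0.52 and -0.39, and when SPRR1A was not counted in the TPM total they were -0.49 and -0.35, so that neither gene passed 0.5 under the latter. HSPA8 had -0.49 and HSP90AA1 -0.43, or -0.37 and -0.32 after centring. DNAJB1 had the highest value, 0.16, or 0.27 after centring, while HSPH1 had -0.13, or -0.01 after centring. The centred difference of HSPH1 was thus 0.41 for the controls and -0.01 for the SPRR1A libraries. Stable DsRed was its lowest library of the 4, as it was for HSPA1B, DNAJB1 and BAG3. For HSPA1B the margin was small, with 124 TPM against 125 in transient SPRR1A cells. How many of all entities were lowest in stable DsRed was not counted. Of the expressed entities, 64.4% were higher in stable SPRR1A and 63.8% in transient GFP than in stable DsRed cells.

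**Figure D3:**
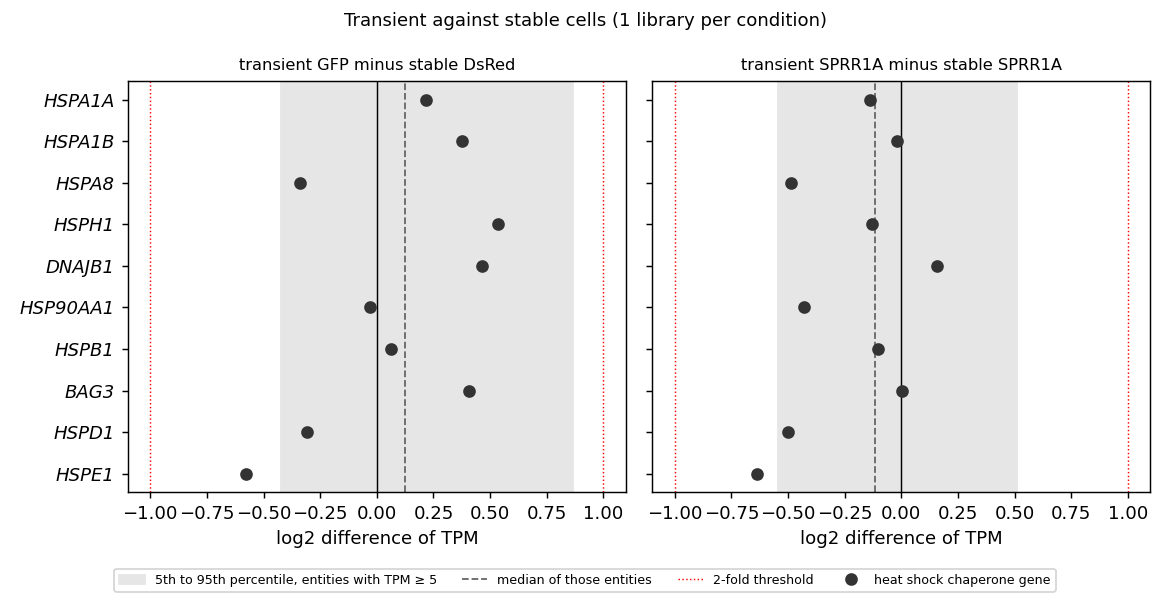
Log2 difference of TPM (horizontal axis) between transient and stable cells for the 10 heat shock chaperone genes, for the controls on the left and the SPRR1A libraries on the right, with 1 library per condition. Grey bands, dashed and dotted lines are the 5th to 95th percentile and median of the expressed entities and the 2-fold threshold. HSPE1 lies left of the band in both panels, at -0.58 and -0.64, with HSPD1 and HSPA8 next to it on the left panel. By definition 5% of the expressed entities lie beyond each end of a band.

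Ratios between related chaperones within a library do not depend on the TPM total. Inducible HSP70 (HSPA1A plus HSPA1B) over constitutive HSPA8 was 0.247 and 0.237 in the stable and 0.320 and 0.356 in the transient libraries. Both transient libraries were above both stable ones. HSPE1 over HSPD1 was 0.556, 0.585, 0.506 and 0.486, lower in both transient libraries. How often other pairs of genes separate the models in this way was not counted. For HSP90AA1 over HSP90AB1, its constitutive counterpart, the values were 0.979, 0.894, 0.950 and 1.003. HSPH1 over HSPA4 was 0.633, 0.487, 0.607 and 0.633, with only stable DsRed set apart. No replicate spread is available to judge these gaps.

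**Figure D4:**
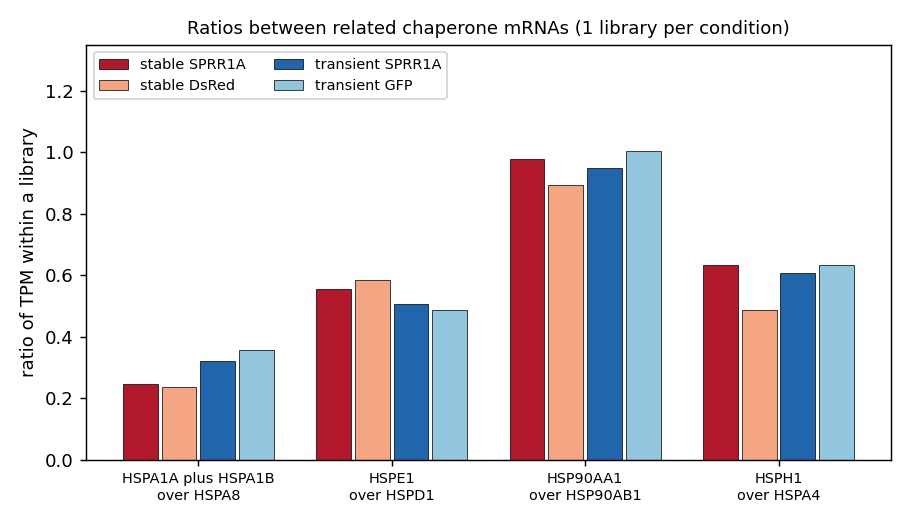
Ratio of TPM within a library (vertical axis, starting at 0) for 4 pairs of related chaperone mRNAs, with 1 bar per library. The ratio of inducible HSP70 to HSPA8 is 0.320 and 0.356 in the transient libraries against 0.247 and 0.237 in the stable ones, and the ratio of HSPH1 to HSPA4 is lowest, at 0.487, in stable DsRed cells.

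The rest of the chaperone network was described with 10 lists, which hold 109 distinct genes, 8 of them in more than 1 list. Past the 2-fold threshold there were 0 of 97 genes above the floor in the stable and 0 of 98 in the transient model. At 0.5, 3 were higher in stable SPRR1A cells, where 0.783% of the expressed entities were, and only 1 was under log2(TPM + 1) or when both libraries had to reach a TPM of 5. These were HSPA4L, an HSP110 protein, at 0.58, the J domain gene DNAJA4 at 0.64 and the low DNAJC12 at 0.76. In the transient model 1 was lower, the J domain gene DNAJB5 at -0.53, with a TPM of 2.83 against 4.09, while after centring it was within the threshold. The transcription factor HSF1 itself had a log2 TPM of 7.04, 6.92, 6.68 and 6.91. Its log2 difference was 0.12 for the stable cells and -0.23 for the transient cells. Of 5 genes above the floor in the list of heat shock factors and their binding proteins, HSF2 differed most in the stable model, by 0.34, at 2.83 and 2.49 log2 TPM, and between the controls it was 0.50 higher in transient cells.

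Between the controls, most of the other HSP70 genes were higher in transient GFP cells. Of 10 other HSP70 and HSP110 genes above the floor, 9 were higher in transient GFP than in stable DsRed cells, with a median of 0.41 against 0.12 for the expressed entities, of which 63.8% were higher. There were 4 past 0.5 and 2 past the 2-fold threshold, against 17.6% and 3.21% of the expressed entities. The filters differ, since genes of this and the other lists only had to lie above the floor in either library. HSPA6 and HSPA4L, both counted past 0.5, had 2.31 and 4.65 TPM in stable DsRed cells, below the 5 required of expressed entities. Past 2-fold were HSPA6, an HSP70 that is little expressed without stress, with TPM values of 6.09 and 2.31, and HSPA13, a chaperone of the endoplasmic reticulum, with 38.5 and 17.9. After centring their log2 differences were 1.27 and 0.98, so that HSPA13 then lay within 2-fold. HSPA5, the HSP70 of the endoplasmic reticulum, was 0.99 higher (810.6 against 409 TPM), while HSPA9, the HSP70 of mitochondria, was 0.11 higher. Between the SPRR1A libraries 6 of these 10 genes were higher and 4 lower in transient cells, with a median of 0.23 against -0.11 for the expressed entities. There HSPA6 had 1.62, HSPA5 0.64, HSPA13 0.47, HSPA9 -0.13 and HSPA4L -0.24. Of 25 J domain genes, 17 were higher between the controls, with a median of 0.21. At 0.5, 5 were higher and 1 lower, which is close to the shares of the expressed entities. Past 2-fold there were 3, against 3.21% of the expressed entities, and DNAJB5 among them had only 1.96 TPM in stable DsRed cells. Between the SPRR1A libraries 9 of the 25 were higher in transient cells, with a median of -0.09. DNAJB9, of the endoplasmic reticulum, had the largest difference between the controls, at 1.81 (22.8 against 6.52 TPM). DNAJB4, of the cytosol, had 1.38, and after centring the values were 1.68 and 1.25. The low DNAJB5 was the other gene past 2-fold, at 1.06, or 0.93 after centring, and the gene lower by 0.5 was DNAJC11, at -0.51. Of the 9 genes listed here as other small heat shock proteins, only HSPB8, a partner of BAG3, and HSPB11 were well expressed. In all libraries 6 of the 9 genes were listed at 0. HSPB8 was 1.07 higher in transient GFP cells, with 180 against 85.6 TPM, or 0.95 after centring, and HSPB11 had a difference of -0.19. Between the SPRR1A libraries, as transient minus stable, they had 0.56 and -0.15. CRYAB was among those listed at 0.

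The cytosolic helpers of HSP90 and the chaperonins lay on the low side. Of 15 co-chaperone genes 9 were lower in transient GFP than in stable DsRed cells, with a median of -0.16, and between the SPRR1A libraries 14 of 15 were lower in transient cells, with a median of -0.36 against -0.11 for the expressed entities. Of the expressed entities 36.2% were lower in the first and 65.0% in the second comparison. In the latter comparison 4 were lower past 0.5, where 6.71% of the expressed entities were, namely PPID at -0.78, TTC4 at -0.64, FKBP4 at -0.58 and FKBP5. With 1.55 TPM in stable SPRR1A cells and a listed 0 in transient SPRR1A cells, FKBP5 was below the level required of expressed entities. After centring PPID had -0.66, TTC4 -0.53, FKBP5 -0.52 and FKBP4 -0.47, so that FKBP4 then lay within 0.5. Of 14 genes of the chaperonin TRiC and of prefoldin, which fold actin and tubulin, 9 were lower in the first comparison and 14 in the second. Their medians were -0.13 and -0.29, or -0.25 and -0.17 after centring. The lowest was TCP1 at -0.56 in the second comparison, or -0.45 after centring. Of the other HSP90 genes, TRAP1, the HSP90 of mitochondria, was lower in transient cells in both comparisons, at -0.54 and -0.53, while HSP90B1, of the endoplasmic reticulum, had 0.50 and 0.12 and HSP90AB1 had -0.19 and -0.39. The 9 other exchange factors of HSP70 had medians of 0.01 and -0.30, with 0 past 0.5 in either direction. The 8 genes of mitochondrial proteases and protein import had medians of -0.03 and -0.21, and 1 of them, CLPX, passed 0.5, at 0.59 between the controls.

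**Figure D5:**
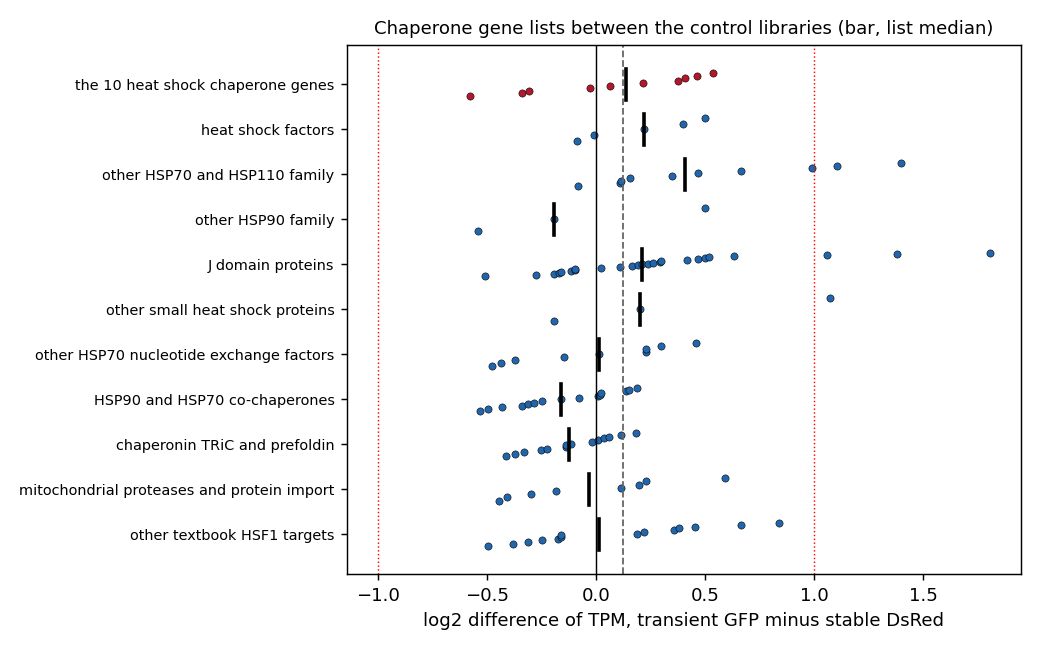
Log2 difference of TPM between transient GFP and stable DsRed cells (horizontal axis) for the 10 heat shock chaperone genes and 10 lists of other chaperone genes, 1 point per gene above the floor, with 1 library per condition. Black bars are list medians, the dashed line is the median of the expressed entities (0.12), and dotted lines mark the 2-fold threshold. The list of other HSP70 and HSP110 genes has the highest median, 0.41, and that of other HSP90 genes the lowest, -0.19, over 3 genes.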

How the data were processed

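Total RNA of PK-1 cells was sequenced by the authors in paired-end mode from stranded mRNA libraries, aligned in Strand NGS (default parameters, human transcriptome, hg38) and normalized as TPM. The deposited value is the log2 of TPM per gene and library, with no value below 0. Software version, annotation release and the treatment of multiply matching reads are not given in the sources used here. Depth in reads is unknown, so no counting interval is given.

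Log2 differences were computed for all entities in 4 comparisons and counted past 1 (the 2-fold rule of the study) and past 0.5. With 1 library per condition no test was made. Expressed entities reached a TPM of 5 in both libraries compared. Centred values subtract their median. The members and lists were chosen with earlier results of these data known. List genes were matched by symbol and 1 by an older symbol. Named were all members, HSF1, HSPA4, HSPA5, HSPA9 and HSP90AB1, read-through entities above the floor, and up to 3 genes per list, comparison and direction past 0.5 that reached a TPM of 5 in either library. DNAJC12, DNAJB5, FKBP5, CRYAB, HSP90B1, HSPB11 and HSF2 in the stable model were named after their values were seen.

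Alternatives were log2(TPM + 1), log2(TPM + 0.1), centring, leaving SPRR1A out of the TPM total, a filter at a TPM of 5, summing HSPA1A and HSPA1B, and adding read-through and pseudogene entities to their parent. Promoter windows and positions are from RefSeq GRCh38.p14, which shares the coordinates of hg38. The calculations were tested on simulated data. Python 3.11.15, numpy 2.4.6, pandas 2.3.3 and matplotlib 3.10.9 were used.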

Additional observations from a re-analysis of the deposited data

Results flagged for a closer look

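The stable and the transient model gave differences of opposite sign for 7 of the 10 heat shock chaperone genes, all above 0 in the stable and below 0 in the transient model. Of the 9658 entities expressed in all 4 libraries 65.3% also had opposite signs, so this count is close to the background. This difference between the models was not tested, with 1 library per condition. As SPRR1A minus control on the log2 scale, the stable and transient values were 0.43 and -0.24 for HSPH1, 0.19 and -0.21 for HSP90AA1, and 0.13 and -0.18 for DNAJB1. They were 0.11 and -0.30 for BAG3 and 0.05 and -0.30 for HSPA1A. HSPA1B had 0.03 and -0.36, and HSPD1 had 0.03 and -0.16. The median of the expressed entities was 0.06 for the stable and -0.18 for the transient comparison, and after centring on it the signs were opposite for 6 of the 10 genes and for 59.0% of those entities.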

How the results depend on the processing

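No paired analysis was possible because there is 1 library per condition. No replicate spread exists, so a value counted as moved when it changed sign or crossed 0.5 or 1, and a count when it changed by more than 1.5 times. Under log2(TPM + 0.1), summing HSPA1A and HSPA1B, and adding read-through entities, none of the results so recomputed moved. Centring changed the median of the members to -0.017 in the stable model, the members past 0.5 to 0 higher between the controls and 1 lower between the SPRR1A libraries, and the other chaperone genes to 1 lower in the stable model, 1 higher and 0 lower in the transient model, 3 higher past 1 and 11 lower past 0.5 between the controls, from 6 and 3, and 3 lower past 0.5 between the SPRR1A libraries, from 9. When SPRR1A was omitted from the TPM total, the median of the members between the SPRR1A libraries was 0.014, 0 members and 2 other chaperone genes were lower past 0.5 there, and 0 other chaperone genes were lower in the transient model. With log2(TPM + 1), and likewise when both libraries had to reach a TPM of 5, 1 other chaperone gene was higher past 0.5 in the stable and 0 lower in the transient model, and under the filter 1 was higher past 1 between the SPRR1A libraries, from 2. Single differences of the members moved in 12 cases under centring and in 7 with SPRR1A omitted, and none that had passed 0.5 changed sign.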

Other observations

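Other textbook targets of HSF1 were spread in both directions. Of 14 such genes above the floor, 7 were higher and 7 lower in transient GFP than in stable DsRed cells, with a median of 0.01, next to 0.12 for the expressed entities. HSPA4L was 0.66 higher between the controls. Between the SPRR1A libraries FKBP4 and MRPL18 were lower in transient cells, at -0.58 and -0.52. Within the models, 11 of the 14 were above 0 in the stable comparison, with a median of 0.07, next to 64.4% and a median of 0.06 for the expressed entities, and 14 were below 0 in the transient comparison, where 94.1% of the expressed entities were, with a median of -0.11 against -0.18.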
